A study of Mus musculus with 12 samples.

Results

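Among the 12114 contigs counted by nanopore direct RNA sequencing of mouse spermatids, 597 (4.93%) carried the name of an interspersed repeat and a copy number, such as B3_dup66373, in place of a transcript identifier. All rows whose contig name was not an Ensembl mouse transcript were taken, and the family was read as the part of the name before "_dup". Grouped by the start of the family name, 121 contigs had SINE names (B1, B2, B3, B4, ID and PB), 260 had names counted here as LTR (MT, ORR1, RMER, RLTR, IAP, MLT and MER), 46 had L1 names and 170 had other repeat names. The grouping is by name alone, and some MER names, such as MER5A and MER58D, belong to DNA transposons. Names that start with MT include MT2A, and those that start with MLT include MLT2B3 and MLTR14. All contigs counted as ID carry the 1 family name ID_B1, which joins ID and B1. Names of 1 start therefore need not be of 1 kind. The libraries came from round spermatids (RS) and elongated spermatids (ES) of adult mice that were either Tent5c wt/wt or Tent5c dcat/dcat. TENT5C is a poly(A) polymerase, and the dcat allele encodes a catalytically inactive protein that the mice still express. The cells were sorted from dissociated testis by Hoechst and propidium iodide fluorescence and light scatter, and each of the 4 groups had 3 libraries, every one of them a pool of RNA from 3 mice. P-values therefore measure the spread between pools, not between animals. The study took the germ cell types of a comparison from the same mice, so RS and ES pools of a genotype may share animals, but the labels do not say which pools do.

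SINEs and L1 elements are retrotransposons that copy themselves through an RNA made from their own promoter. B1 elements descend from the 7SL RNA gene and B2 and ID elements from transfer RNA genes, they encode no protein, and they depend on the enzymes made by L1. LTR elements are the remains of endogenous retroviruses, and many of the MT, ORR1 and MLT names belong to one old, mostly protein-free group of them that is often spliced into host transcripts of germ cells and early embryos. Most copies of all these classes are old and broken, lie within or beside genes, and can be read as part of a longer host RNA. In the male germ line, retrotransposons are held down by piRNAs, small RNAs bound to PIWI proteins, and by DNA methylation. RS still transcribe their genes, whereas in ES the chromatin is compacted with protamines and the RNA present is largely stored RNA.

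Library totals ran from 337287 counts (ES wt/wt replicate 3) to 1359427, and repeat contigs held 1.19% to 1.33% of them. The sort was checked with fixed marker lists, read beside the 23.8% of all contigs called higher and 16.5% called lower in ES wt/wt. Late spermatid contigs were higher in ES for 19 of 22 tested in wt/wt, Prm1, which encodes a protamine, going from 11668 to 100383 CPM, that is, counts scaled to one common library size. Early haploid contigs were called higher for 3 and lower for 4 of 14 in wt/wt, with summed levels of 1799 to 2044 CPM in RS and 2398 to 2897 CPM in ES. Meiotic contigs were called higher for 5 and lower for 5 of 20, at 1287 to 1389 CPM in RS and 1214 to 1297 CPM in ES. Most tested markers of somatic testis cells were also higher in ES. Of 8 Leydig cell contigs, 7 were higher in each genotype, with summed levels of 69.0 to 129 CPM in RS wt/wt and 486 to 929 CPM in ES wt/wt, and of 8 Sertoli cell contigs 7 were higher, from 32.4–46.7 to 240–409 CPM. Both macrophage and blood contigs were higher as well, from 4.15–10.6 to 110–127 CPM, and no gene of these lists that was tested lay at 0. Only 7 of the 12 Leydig, 7 of the 14 Sertoli and 2 of the 12 macrophage and blood genes listed had a contig. The part of these cells in the stage differences below was not tested. The single Tent5c contig had 229 to 592 counts in the wt/wt libraries and 257 to 660 in the dcat/dcat libraries, which is no check of the genotype, since a count does not show which allele a transcript came from.

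The scale on which levels are compared matters for every stage difference. CPM here are counts divided by the library total and a TMM factor, which was 1.25 to 1.31 in RS and 0.741 to 0.841 in ES. With TMM factors the median contig had a log2 difference of ES over RS of -0.24 in wt/wt and -0.18 in dcat/dcat, and with library totals alone of -0.96 and -0.85. A repeat class can therefore lie above RS on the first scale and below it on the second. It is also set against the median contig, which depends in turn on which contigs were tested.

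The 597 repeat contigs together had 108019 counts, of which LTR contigs held 42.3%, SINE contigs 20.8%, L1 contigs 6.68% and the other names 30.2%. Counts were spread thinly. A repeat contig had a median of 111 counts over all 12 libraries, against 226 for a transcript contig, and the median per contig and library was 11 in RS and 6 in ES. The 10 most counted repeat contigs held 14% of the repeat counts. They belonged to 242 families, 140 of which had 1 contig. The files give these contigs neither position nor sequence, so whether reads came from the element itself or from a longer RNA that carries it was not tested, and reads may have been assigned between near-identical copies of one family.

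The summed repeat classes were all higher in ES than in RS on the TMM scale, LTR names by the most and L1 names by the least. The L1 names leave out the Lx names, a rodent lineage of L1 taken among the remaining names. The Lx sum rose by 0.60 (SE 0.132) in wt/wt. LTR sums were 3779, 3897 and 4313 CPM in RS wt/wt and 7678, 8012 and 6619 CPM in ES wt/wt, a log2 difference of 0.90 (SE 0.120). SINE sums were 1941, 2116 and 2238 CPM in RS and 3209, 3439 and 3076 CPM in ES, a log2 difference of 0.63 (SE 0.121). L1 sums were 627, 689 and 748 CPM in RS and 937, 1090 and 878 CPM in ES, a log2 difference of 0.49 (SE 0.152). Within each class every ES wt/wt library lay above every RS wt/wt library. The remaining names rose by 0.86 (SE 0.117), from 2843 ± 168 to 5164 ± 384 CPM (SD, n = 3). All 4 class sums passed the edgeR quasi-likelihood test in a fit with all transcript contigs, with Benjamini-Hochberg adjusted p of 0.0183 for L1, where 39.6% of the 11279 rows were called, 23.5% higher. The L1 call was lost without ES replicate 2 (adjusted p = 0.0765, edgeR), RS replicate 1 (0.0589) or RS replicate 2 (0.0531). With MER names of DNA transposons taken out and further retrovirus names added, the LTR sum rose by 0.86, and the names left over rose by 1.34. In these pooled cells, more RNA of a class per cell and more cells that carry it cannot be told apart.

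No class sum was called with library totals alone, at log2 differences in wt/wt of 0.16 for LTR, 0.13 for the remaining names, -0.10 for SINE and -0.24 for L1. Set against the median contig, both scales gave nearly the same place, which they must, since a change of scale moves all contigs of a library by 1 factor. The median also depends on the filter on low counts. With TMM in wt/wt it was 0.12 over the contigs that passed in both stages and -0.68 over those that passed in RS alone. LTR sums lay 1.14 above the median contig on the log2 scale with TMM and 1.12 with totals alone, SINE sums 0.87 and 0.85, and L1 sums 0.74 and 0.72. These places set a sum weighted by counts against a median that is not. With totals alone, all counts together are the same in every library by construction, yet the median contig lay at -0.96 in wt/wt. A place above the median contig therefore does not show a rise against all counts, below which SINE and L1 sums lay. As a plain share of all counts, LTR contigs went from 0.510% ± 0.0231 in RS wt/wt to 0.572% ± 0.0238 in ES wt/wt, and SINE contigs from 0.268% ± 0.0112 to 0.250% ± 0.0118 (SD, n = 3). In wt/wt LTR shares did not overlap between the stages, and SINE shares did, at 0.256% to 0.279% against 0.236% to 0.257%. In dcat/dcat SINE shares did not overlap, at 0.263% to 0.273% in RS and 0.223% to 0.243% in ES.

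The ratio of LTR to SINE counts within a library needs no scaling. In wt/wt it was 1.95, 1.84 and 1.93 for the RS libraries and 2.39, 2.33 and 2.15 for the ES libraries. In dcat/dcat it was 1.84, 1.78 and 1.82 in RS and 2.33, 2.22 and 2.43 in ES. Every ES library therefore had more LTR counts per SINE count than every RS library, in both genotypes. No test was made of this ratio.

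**Figure D1:**
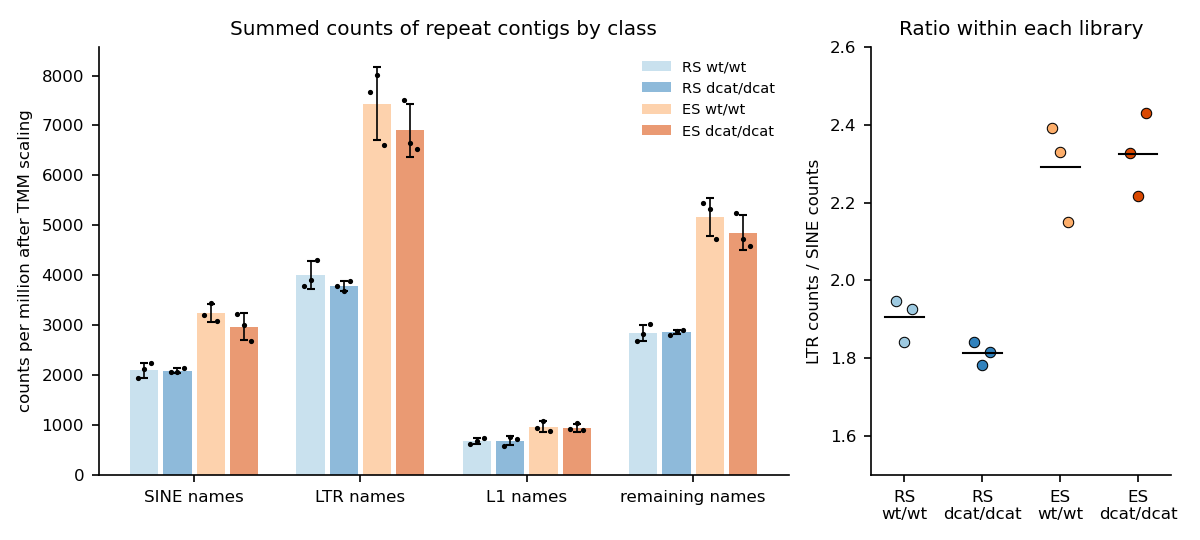
Left, summed level of each repeat class in CPM after TMM scaling, with points for libraries, bars for the mean of 3 libraries per group and error bars for the SD, and right, the ratio of LTR to SINE counts in each library with a line at the mean. All 4 classes lie higher in ES than in RS in both genotypes on this scale, whereas with library totals alone the SINE and L1 sums lie lower in ES (log2 -0.10 and -0.24 in wt/wt), and the ratio, which needs no scaling, lies higher in every ES library than in every RS library.

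Contig by contig, 556 of the 597 had enough counts to be tested, and 41 had not. In wt/wt, 194 of the 556 (34.9%) were called higher in ES and 56 (10.1%) lower at an adjusted p of 0.05 by edgeR. Over all 11831 contigs tested, 40.3% were called, 23.8% higher and 16.5% lower. Without ES wt/wt replicate 2, the repeat calls in wt/wt numbered 163 in place of 250. LTR contigs were called higher for 91 and lower for 29 of 235, SINE contigs for 31 and 7 of 118, L1 contigs for 16 and 2 of 42 and the remaining names for 56 and 18 of 161. The median log2 difference was 0.20 over the repeat contigs, 0.63 over L1, 0.33 over LTR and -0.16 over SINE contigs, against -0.24 over all contigs. These medians and counts depend on how contigs passed the filter on low counts. With library totals alone 156 repeat contigs were called higher and 174 lower in wt/wt, so that the higher share went from 77.6% to 47.3%, and in dcat/dcat from 76.8% to 44.5%.

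How a contig came through the filter of 10 counts in 2 libraries of a group fixes part of these counts. Of the repeat contigs, 117 passed through an ES group alone, of which 109 were called higher, and 271 passed through an RS group alone, of which 46 were called lower and 2 higher. Of the 168 that passed in both stages, 83 (49.4%) were called higher and 10 (5.95%) lower, beside 31.8% and 20.6% of the 6189 transcript contigs that passed in both. By class, 13 SINE contigs were higher and 1 lower of the 31 that passed in both stages, 39 and 5 of 73 for LTR, and 4 and 2 of 12 for L1, with median log2 differences of 0.70, 1.08 and 0.81. Of the tested SINE contigs 69 had passed through RS alone, with a median of -0.63, and 18 through ES alone, with a median of 2.57. The higher share also rose with level. It was 5.63% of repeat contigs under 10 CPM, 41.7% from 10 to 30 CPM and 61.4% from 30 to 100 CPM, where transcript contigs had 1.83%, 18% and 27.8%.

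Stems of the family name differed widely. In the sums over a stem, 15 of 20 were called higher in ES wt/wt and none lower on the TMM scale, where 39.7% of the rows of that fit were called, 23.5% higher. The L2 and L3 names, remains of a LINE older than L1, rose most, from 429 ± 83.2 to 1612 ± 258 CPM, a log2 difference of 1.91. MT names followed, from 577 ± 125 to 1689 ± 225 CPM, a difference of 1.55. B1, MER, B4 and ORR1 sums rose by 1.03, 1.01, 0.96 and 0.90. With library totals alone these 6 stems lay above 0 in both genotypes, but B1, MER, B4 and ORR1 were no longer called in either, with adjusted p of 0.0731, 0.136, 0.213 and 0.297 in wt/wt (edgeR). On the TMM scale the B2, ID, IAP and other-names sums were not called in either genotype, at log2 differences of 0.13, 0.14, -0.92 and 0.27 in wt/wt. With library totals alone all of them were called lower in wt/wt (edgeR). They then lay at -0.60 (B2, adjusted p = 0.0115), -0.59 (ID, 0.0065), -1.64 (IAP, 0.0136) and -0.46 (other names, 0.0237). On that scale ID was also called lower in dcat/dcat (-0.74, adjusted p = 0.0017, edgeR). The IAP sum was also called without ES wt/wt replicate 3 (-1.49, adjusted p = 0.0499, edgeR). The MIR sum lay near the threshold in wt/wt at 0.45 (adjusted p = 0.0515, edgeR). It passed with DESeq2 (0.0438), the groups compared alone (0.0458), the replicate block (0.0236) and without ES replicate 3 (0.0257). With library totals alone only 7 of the 20 stem sums lay above 0 in wt/wt, against 19 with TMM, whereas 19 lay above the median contig on both scales, the exception being IAP. A place against the median contig hardly depends on the scale, which moves all contigs alike. It sets a sum weighted by counts against a median that is not, and so does not show a rise against all counts.

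**Figure D2:**
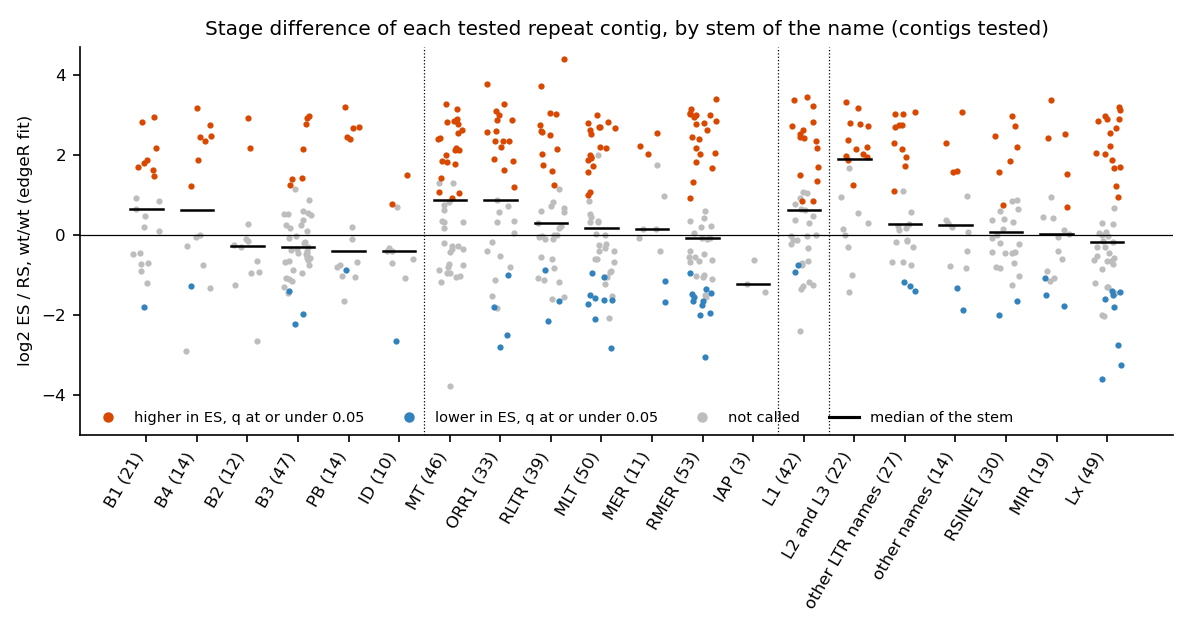
Log2 difference of ES over RS for the contigs of each name stem in wt/wt, after TMM scaling, one point per tested contig, coloured where called by edgeR, with a line at the median of the stem and the number of contigs tested in brackets. MT and the L2 and L3 names have contigs called higher and none called lower, while RMER, MLT and Lx names have both. With library totals alone the whole plot moves down, the median of all contigs from -0.24 to -0.96.

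Among SINEs the most counted contig, B3_dup66373, rose strongly while the second did not pass the test in wt/wt. B3_dup66373 had 73.9, 82.2 and 113 CPM in RS wt/wt and 376, 460 and 357 CPM in ES wt/wt, a log2 difference of 2.14 (SE 0.236, adjusted p = 7.49e-06, edgeR). ID_B1_dup27209 had 153, 145 and 131 CPM in RS and 118, 59 and 106 CPM in ES, a difference of -0.61 with an adjusted p of 0.127 that passed in dcat/dcat at -1.06 (adjusted p = 0.0146). In wt/wt it passed with the replicate block (adjusted p = 0.0183, edgeR), with 10 counts in every library (0.0124) and with library totals alone (0.0021). So the most counted SINE copies did not share a direction. PB1D10_dup4937, a proto-B1 element, had 12.5, 10.7 and 16.6 CPM in RS and 114, 146 and 120 CPM in ES, 3.21 higher on the log2 scale (SE 0.301). B4A_dup54499, from a family that joins ID and B1 sequence, rose by 3.19, from a mean of 4.07 to 39.8 CPM. Groups without overlap were a condition for naming both. B4A_dup54499 was low in RS, and of the 18 SINE contigs that passed the filter through ES alone 17 were called higher in wt/wt. The filter thus fixes part of such a rise. In the other direction, B1_Mur4_dup28070 had 37.4, 40.5 and 40.2 CPM in RS and 14.8, 5.71 and 14.1 CPM in ES and fell by 1.82. B3A_dup51644 fell by 1.99, from 28.6 to 6.53 CPM, and B3A_dup87282 fell by 2.24, from 15.6 to 3.15 CPM. B3A_dup87282 was not called in dcat/dcat, where its difference was -0.35 (adjusted p = 0.593), and the test of the difference between the genotypes did not pass (adjusted p = 1, edgeR).

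The SINE stems ranged from B1, with 8 contigs called higher and 1 lower of 21, to B2, with 2 higher and none lower of 12, beside 23.8% higher and 16.5% lower over all contigs. B4 names had 7 higher and 1 lower of 14, PB names 5 and 1 of 14 and ID names, all of them ID_B1, 2 and 1 of 10. B3 was the largest stem, with 7 higher and 3 lower of 47, and most of its contigs had few counts. Its plain B3 family had 5 higher and none lower of 36 tested, whereas B3A had 2 higher and 3 lower of 11. B2_Mm1t_dup10637, the B2 contig with the clearest stage difference in dcat/dcat, had 3.21, 2.62 and 2.47 CPM in RS dcat/dcat and 51, 25 and 43.9 CPM in ES dcat/dcat, rising by 3.80, and by 2.94 in wt/wt. At so low an RS level the filter favours contigs that rise. The log2 differences of the 7 B2_Mm2 contigs ran from -2.65 to 2.19 in wt/wt, with 1 called higher and none lower. B4A_dup41416 had 11, 12 and 14 counts in RS dcat/dcat and 1, 1 and 0 in ES dcat/dcat (adjusted p = 0.00816, edgeR), a call that was lost without ES dcat/dcat replicate 3. B4_dup16601 fell in dcat/dcat by 1.34, from 42.6 to 16.4 CPM.

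Of the LTR names, the MT stem had calls in 1 direction. In wt/wt 21 of its 46 tested contigs were called higher and none lower, beside 23.8% higher and 16.5% lower over all contigs. In dcat/dcat 23 were called higher and none lower, beside 24% and 16.9%. The median log2 differences of the stem were 0.88 and 1.19. Of the 46, 11 carried MT2 names and 35 the MTA to MTE names, of which 5 and 16 were called higher in wt/wt, and 4 and 12 lay below 0 without being called. MTD_dup22251 held 51.3% of the counts of the MTD family and had 42.4, 38.1 and 58.5 CPM in RS wt/wt and 230, 304 and 208 CPM in ES wt/wt, a difference of 2.40 (SE 0.229). In dcat/dcat it rose by 1.65, and its level in ES was lower in dcat/dcat by 0.60 on the log2 scale (adjusted p = 1, edgeR). ORR1 names had 16 contigs higher and 4 lower of 33, with a median of 0.87. Of the 58 LTR contigs that passed the filter through ES alone, 52 were called higher and none lower in wt/wt. The filter can thus fix part of the MT and ORR1 counts.

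MLT names had 18 contigs called higher and 9 lower of 50, beside 23.8% higher and 16.5% lower over all contigs. This stem takes in MLTR names such as MLTR14, with 4 higher and none lower of 9 tested. The 2 most counted LTR contigs are of this stem. MLT1A1_dup1817 had 69.8, 57.2 and 96.4 CPM in RS wt/wt and 507, 436 and 353 CPM in ES wt/wt, a log2 difference of 2.52 (SE 0.214, adjusted p = 1.74e-06, edgeR). MLT1G3_dup736 had 184, 162 and 217 CPM in RS and 186, 198 and 191 CPM in ES, a difference of 0.03 (adjusted p = 0.942) that became -0.69 with library totals alone. The former rose in every ES library, and the latter overlapped fully between the stages. Another copy of the first family, MLT1A1_dup7860, had 132, 149 and 122 CPM in RS and 52.8, 60.9 and 84.7 CPM in ES and fell by 1.05, although in dcat/dcat its difference of -0.57 was not called (adjusted p = 0.0926). MLT1D_dup7152 fell by 1.62, from 31.4 to 9.61 CPM. Copies that share a family name thus stood on both sides.

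**Figure D3:**
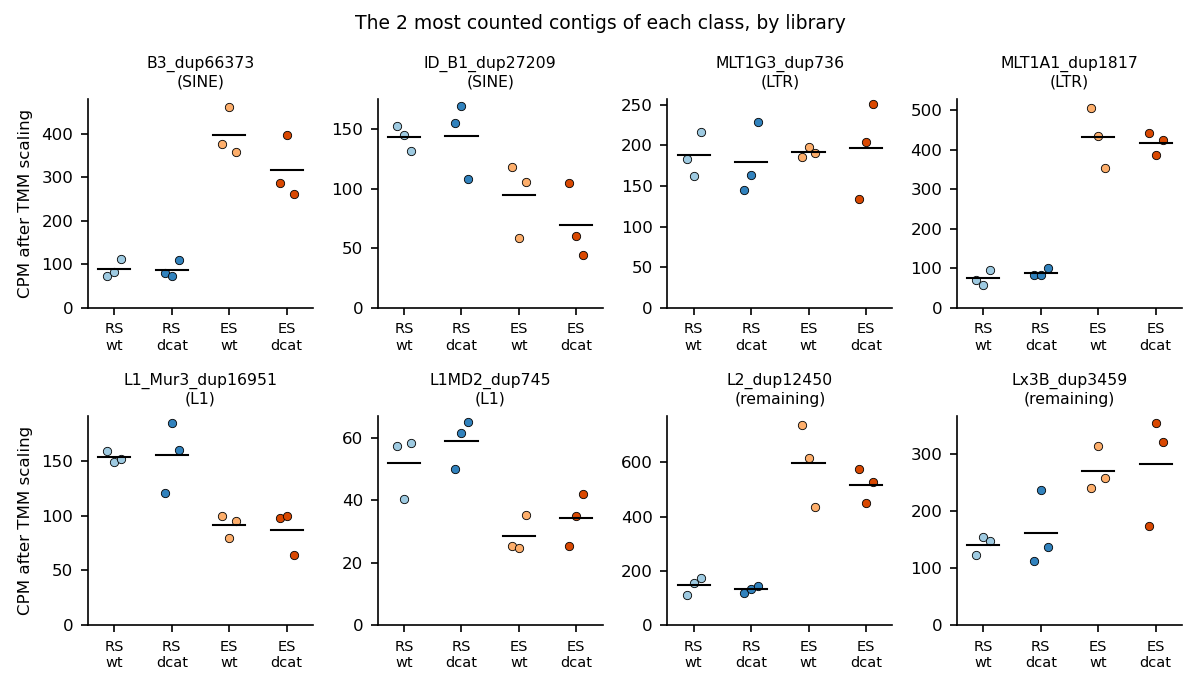
Level of the 2 most counted contigs of SINE, LTR, L1 and the remaining names in every library, in CPM after TMM scaling, with a line at the mean of each group. B3_dup66373, MLT1A1_dup1817 and L2_dup12450 lie higher in all ES libraries, MLT1G3_dup736 overlaps between the stages on this scale and lies 0.69 lower in ES (log2, wt/wt) with library totals alone, and L1_Mur3_dup16951 lies lower in all ES libraries.

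RMER names split by family number. The RMER1A, RMER1B and RMER1C families had 16 tested contigs, 12 called higher and none lower in wt/wt, with a median log2 difference of 2.43 and a range of -0.54 to 3.16. Over all contigs 23.8% were called higher and 16.5% lower. All 8 tested RMER2 contigs lay below 0, from -1.96 to -0.62, with 6 called lower and none higher. In dcat/dcat the counts were 11 higher and none lower for RMER1 names and 5 lower and none higher for RMER2. The filter on low counts can fix part of such a split. In wt/wt, 52 of the 58 LTR contigs that passed through ES alone were called higher. Of the 104 that passed through RS alone, 24 were called lower and none higher. RMER1A_dup1717 had 8.31, 15.5 and 14.2 CPM in RS wt/wt and 88.7, 112 and 91.8 CPM in ES wt/wt, a difference of 2.95. RMER2_dup611 had 29.9, 25 and 24.2 CPM in RS and 8.45, 11.4 and 10.6 CPM in ES, and fell by 1.37, a call that was lost without ES wt/wt replicate 1 (adjusted p = 0.057, edgeR). Neither contig overlapped between the stages in either genotype, which the rule for naming them required. RMER2_dup586 fell in dcat/dcat by 2.29, from 32.7 to 6.98 CPM. RMER15, with 2 contigs higher and 3 lower of 7, went both ways.

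The remaining LTR stems were RLTR, MER and IAP. RLTR names had 13 contigs higher and 3 lower of 39, and MER names 3 and 2 of 11, beside 23.8% higher and 16.5% lower over all contigs. MER58D_dup16, with a DNA transposon name, held 1191 of the counts of the MER stem and rose by 2.23. The largest stage difference of any repeat contig in wt/wt was that of RLTR22_Mur_dup1841, at a log2 difference of 4.41, and 2.37 in dcat/dcat, on 65 counts in all libraries. IAP elements, among the few LTR families with copies that still move in the mouse genome, were near the floor of detection. Only 3 IAP contigs were counted, and none was called in wt/wt, whereas IAPEY2_LTR_dup172 was called higher in ES dcat/dcat (2.19, adjusted p = 0.044, edgeR). IAP1-MM_I-int_dup201, an internal stretch, had 7, 16 and 35 counts in RS wt/wt and 1, 3 and 4 in ES wt/wt, a difference of -1.23 that was not called (adjusted p = 0.152, edgeR). At 3 counts per library, the floor used here, a level is 1.77 to 3.57 CPM in RS wt/wt and 5.71 to 10.6 CPM in ES wt/wt, so that a fall of an IAP contig below these levels was not detectable at this depth.

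Contigs with L1 names were few, and their sum leaned on single copies. In wt/wt 16 of 42 contigs were called higher and 2 lower, beside 23.8% and 16.5% of all contigs. Of the 16, 12 were among the 13 that passed the filter through ES alone. Of the 12 that passed in both stages, 4 were higher and 2 lower in wt/wt, and 2 each way in dcat/dcat. The most counted L1 contig, L1_Mur3_dup16951, held 17.4% of the L1 counts and fell, with 159, 149 and 152 CPM in RS wt/wt and 99.3, 79.9 and 95.3 CPM in ES wt/wt, a log2 difference of -0.75 (SE 0.224, adjusted p = 0.0154, edgeR). Without it the L1 sum rose by 0.71 in place of 0.49. Its own call was lost without ES wt/wt replicate 1 (adjusted p = 0.0505) or replicate 2 (adjusted p = 0.125). L1MD2_dup745, the other L1 contig that fell, went from 57.3, 40.5 and 58.5 CPM to 25.4, 24.7 and 35.3 CPM, a difference of -0.92. That call was also lost without ES wt/wt replicate 1 (adjusted p = 0.0929, edgeR) or replicate 2 (0.109).

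By name, 30 of the tested L1 contigs carried L1M names, which mark old copies shared among mammals, and 12 of them were called higher and 1 lower. L1Md names, which mark the young mouse-specific subfamilies, had 4 tested contigs with 1 higher and none lower, and the L1_Mur, L1_Mus, L1_Rod and L1VL names 8, with 3 higher and 1 lower. L1Md_T_dup18258 had 1.66, 4.77 and 3.55 CPM in RS wt/wt and 21.1, 36.1 and 38.8 CPM in ES wt/wt, a difference of 3.23. L1ME3E_dup314 rose by 2.73, from 5.98 to 39.2 CPM, and L1MDa_dup1423 by 2.63, from 6.21 to 37.6 CPM. All 3 rose in dcat/dcat too, by 2.41, 2.98 and 2.80. Contigs this low in RS could be tested only because of their ES counts. L1MA4A_dup2567 had 22.4, 36.7 and 30.5 CPM in RS dcat/dcat and 2.32, 9.99 and 3.38 CPM in ES dcat/dcat, a fall of 2.54, against -0.70 in wt/wt. The interaction, at -1.84, did not pass the adjustment (adjusted p = 1, edgeR).

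Of the other names, L2 and L3 contigs were called higher for 13 and lower for none of 22 in wt/wt, with a median log2 difference of 1.91, and for 13 and 1 in dcat/dcat. L2_dup12450 alone held 63.9% of the counts of the L2 family. It had 110, 155 and 173 CPM in RS wt/wt and 739, 614 and 434 CPM in ES wt/wt, a difference of 2.03, and it rose by 1.98 in dcat/dcat. Of the 8 L2a contigs, 5 were higher and none lower. MIR names, SINEs of the same age that used the L2 machinery, had 5 higher and 3 lower of 19 (26.3% and 15.8%), close to the 23.8% and 16.5% of all contigs, led by MIR_dup10345, which rose by 3.39 from 5.22 to 56.6 CPM. Low RS levels limit what such a rise shows, since 28 of the 28 remaining-name contigs that passed the filter through ES alone were called higher in wt/wt. Lx names, an old rodent lineage of L1, had 16 higher and 8 lower of 49, beside 23.8% and 16.5% of all contigs. Lx3B_dup3459 rose by 0.94, from 141 to 271 CPM (adjusted p = 0.0175, edgeR), a call that was lost without RS wt/wt replicate 1 and with library totals alone, where the difference was 0.23. Lx2A1 stood apart among them. In wt/wt all 8 of its contigs lay below 0, from -3.60 to -0.74, with 4 called lower, and in dcat/dcat 7 did, with 6 called lower. Lx2A1_dup626 had 17, 10 and 14 counts in RS wt/wt and 1, 0 and 0 in ES wt/wt (adjusted p = 0.00572, edgeR), a call that was lost without ES wt/wt replicate 2 (0.0522).

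The endogenous retrovirus names with an ERVB prefix, taken among the remaining names, gave examples of both directions. ERVB7_4-LTR_MM_dup126 had 11.6, 25 and 22.5 CPM in RS wt/wt and 139, 141 and 113 CPM in ES wt/wt, a log2 difference of 2.74. ERVB4_1C-LTR_Mm_dup897 had 194, 179 and 114 CPM in RS and 61.3, 60.9 and 81.2 CPM in ES and fell by 1.27. The fallen contigs of the remaining names included LTR72_RN_dup640, from 36.8 to 15.6 CPM, and, in dcat/dcat, Lx8_dup43241, which fell by 2.45 from 20 to 3.29 CPM, and MIRc_dup21707, which fell by 1.89 from 26.3 to 7.01 CPM.

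Summed by family, 92 of 225 families were higher and 18 lower in ES wt/wt, in a fit where 40.2% of rows were called, 23.6% higher and 16.6% lower. RMER1B went from 33.2 to 191 CPM over its 5 contigs (log2 difference 2.52), MTC-int from 29.3 to 183 CPM over 2 contigs (2.61), RMER1A from 82.4 to 306 CPM (1.89), L2 from 244 to 898 CPM (1.88) and MTD from 113 to 384 CPM (1.77). Of the families that fell, Lx2A1 went from 80.4 to 24.6 CPM (-1.69, SE 0.292), RMER2 from 179 to 65.3 CPM (-1.44, SE 0.305) and RCHARR1 from 32.2 to 14.1 CPM (-1.19). ERVB4_1C-LTR_Mm (-1.27) and LTR72_RN (-1.18) had 1 contig each. All 10 kept their direction in dcat/dcat and, in wt/wt, with library totals alone.

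**Figure D4:**
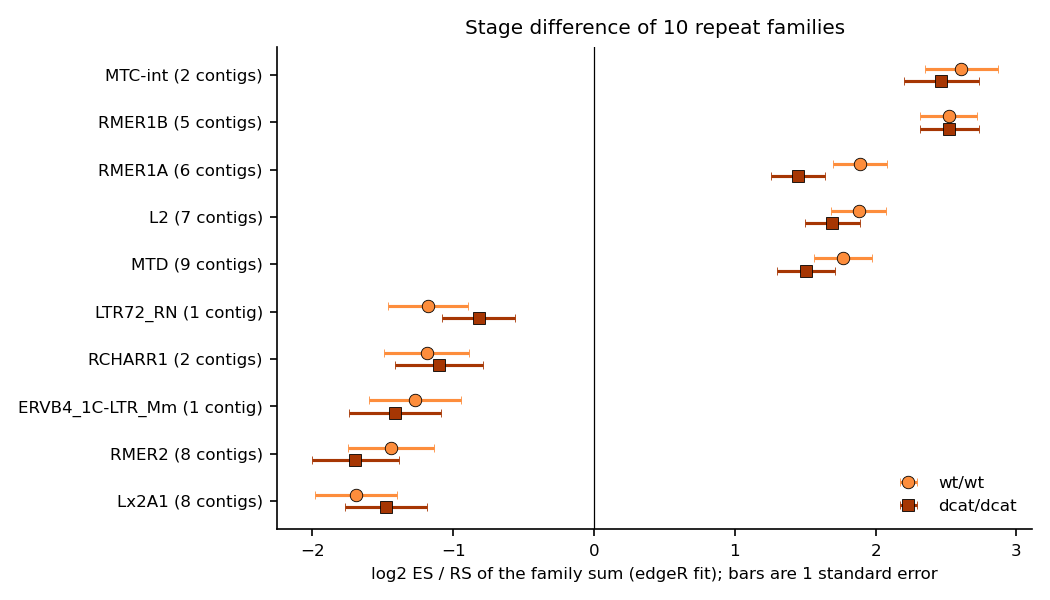
Log2 difference of ES over RS, after TMM scaling, of the 10 named family sums, circles for wt/wt and squares for dcat/dcat, with bars of 1 standard error and the number of contigs in brackets. MTC-int, RMER1B, RMER1A, L2 and MTD lie above 0 and the other 5 below it in both genotypes, on this scale and, in wt/wt, with library totals alone.

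Some families had contigs called in both directions, but most did not. Of the 33 families with at least 5 tested contigs, 12 had contigs called in both directions in wt/wt, and of the 49 with at least 2 calls, 19 had. Families with several calls in 1 direction in wt/wt included B3 and L2 (5 higher each), B4A, L2a, MTD and RMER1A (5 each), MLTR14 and Lx9 (4 each), RMER1B (4), and, among those that fell, RMER2 (6) and Lx2A1 (4). In dcat/dcat B3 had 2 contigs called lower beside 4 higher, and L2, B4A, MLTR14 and Lx9 had 1 lower each beside 4 or 5 higher. ORR1F had 4 contigs higher and 1 lower and ORR1D1 1 and 2, so that subfamilies of ORR1 also differed. A family name alone did not fix the direction of its copies.

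The stage comparison in dcat/dcat rests on other libraries than that in wt/wt, but is not fully separate from it. The study sorted 1 mouse of each genotype in every session, and both comparisons come from the same fit. In dcat/dcat 192 repeat contigs were called higher in ES and 58 lower, where 41% of all contigs were called, 24% higher and 16.9% lower. Of the 250 calls in each genotype, 208 (83.2% of each) were made in both, 179 of them higher and 29 lower, and none was called in opposite directions. For all contigs tested the shared calls were 82.1% of those in wt/wt and 80.7% of those in dcat/dcat. Class sums rose in dcat/dcat by 0.86 for LTR, 0.51 for SINE, 0.47 for L1 (adjusted p = 0.0246, edgeR) and 0.76 for the remaining names, in a fit with 40.4% of rows called, 23.8% higher. The L1 call was lost without RS dcat/dcat replicate 1 (0.35, adjusted p = 0.117, edgeR) or ES dcat/dcat replicate 2 (adjusted p = 0.0754). With library totals alone LTR (0.17), the remaining names (0.07), L1 (-0.22) and SINE (-0.19) were not called. The stem sums kept their order at the top, with 1.73 for the L2 and L3 names and 1.47 for MT names. On the TMM scale 16 of 20 were called higher and none lower, where 40.5% of rows were called. The B3 (adjusted p = 0.0318, edgeR) and MIR (0.048) calls were lost without ES dcat/dcat replicate 1 or 2 or any RS dcat/dcat replicate. MIR was also lost with DESeq2 (0.0559), its size factors (0.0601) and the groups compared alone (0.0648). RSINE1 was lost without RS dcat/dcat replicate 2 (0.0551, edgeR). Family sums were higher for 89 and lower for 23 of 225, where 40.8% of rows were called, 23.8% higher and 17.1% lower.

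By edgeR, the genotypes differed at no repeat contig in either stage, and at no other contig (0% called of 11831 in RS, in ES and for the interaction of stage and genotype). At an unadjusted p under 0.05 there were 11 repeat contigs in RS (1.98%), 27 in ES (4.86%) and 12 for the interaction (2.16%), beside 0.828%, 3.01% and 1.44% of all contigs. DESeq2 called no repeat contig in any of these comparisons either. The class sums of the genotypes lay close together. In RS, LTR sums were 3996 ± 281 CPM in wt/wt and 3790 ± 103 in dcat/dcat, SINE sums 2098 ± 150 and 2090 ± 47.0 and L1 sums 688 ± 60.6 and 688 ± 95.6 (SD, n = 3). In ES, LTR sums were 7436 ± 727 and 6902 ± 535 CPM, SINE sums 3241 ± 183 and 2974 ± 269 and L1 sums 969 ± 109 and 950 ± 78.9. No class sum was called, with log2 differences of -0.08 to 0.01 in RS and -0.12 to -0.03 in ES. The groups of 63 repeat contigs (11.3%) did not overlap between the genotypes in ES, 43 of them lower and 20 higher in dcat/dcat, beside 7.66% of all contigs (3.65% lower, 4.01% higher). In RS those of 46 (8.27%) did not, 26 lower and 20 higher, beside 5.31% of all contigs (2.76% lower, 2.55% higher).

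Several of the repeat contigs with the smallest genotype p were sparse, although ORR1B1_dup2496 had 206 counts over all libraries, above the repeat median of 111. In RS, B4A_dup6413 had 0, 0 and 4 counts in the wt/wt libraries against 14, 7 and 21 in the dcat/dcat libraries, a log2 difference of 3.57 (SE 0.706, adjusted p = 1, edgeR). In ES it had no count in the 3 wt/wt libraries and 4, 8 and 6 in dcat/dcat, at least 5.40-fold higher against a floor of 3 counts over the group. With the replicate number as a block the RS difference was 3.59 and passed the threshold (adjusted p = 0.0365), the only genotype call of a repeat contig by any alternative. The contig was thus higher in all 3 dcat/dcat libraries of each stage. ORR1B1_dup2496 went the other way, with 24, 16 and 62 counts in the RS libraries of wt/wt against 10, 6 and 10 in those of dcat/dcat, a difference of -1.52 (SE 0.341). In ES it had 18, 28 and 10 counts in wt/wt against 7, 6 and 9 in dcat/dcat, a difference of -1.46 (SE 0.368). On the CPM scale its genotypes did not overlap in either stage, at 25.2 ± 9.92 against 8.93 ± 1.53 in RS and 42.2 ± 9.67 against 15.5 ± 0.668 in ES (SD, n = 3). L1VL2_dup258 had 13, 12 and 10 counts in RS wt/wt against 1, 1 and 3 in RS dcat/dcat, a difference of -2.43, and in ES 12, 5 and 3 against 1, 3 and 1, a difference of -2.08.

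IAPEY2_LTR_dup172, the LTR of an IAP family, had 0, 1 and 0 counts in RS wt/wt against 3, 2 and 6 in RS dcat/dcat. In ES it had none in wt/wt against 10, 0 and 16 in dcat/dcat, at least 7.80-fold higher against the floor (adjusted p = 1, edgeR), with 1 dcat/dcat library at 0. For the interaction, B4_dup51927 had mean levels of 34 CPM in RS wt/wt, 24.5 in RS dcat/dcat, 19.1 in ES wt/wt and 42.1 in ES dcat/dcat, a difference between the stage differences of 1.53 (adjusted p = 1, edgeR). None of these contigs passed the adjustment over all contigs without the block.

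**Figure D5:**
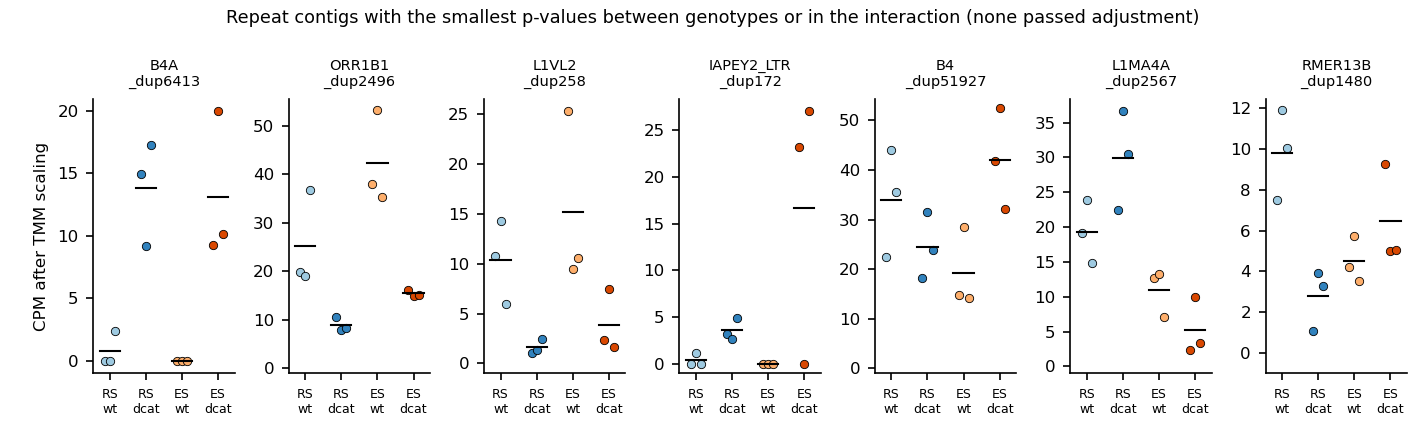
Level in every library, in CPM after TMM scaling, of the 7 repeat contigs with the smallest p in a genotype comparison or the interaction, with a line at the mean of each group. B4A_dup6413 lies higher and ORR1B1_dup2496 lower in all dcat/dcat libraries of each stage, and none passed the adjustment over all contigs without the replicate block.

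Genes that silence retrotransposons were counted beside the repeats. Of 30 genes fixed as a list, 20 were tested through 34 contigs, of which 2 (5.88%) were higher and 10 (29.4%) lower in ES than in RS of wt/wt, beside 23.8% and 16.5% of all contigs. In dcat/dcat the counts were 2 higher and 8 lower, and none was called between the genotypes. Ddx4, a germ cell RNA helicase of the piRNA granules, fell by 1.17, from 211 to 93.2 CPM. Tdrd6 and Tdrd7, tudor proteins of the chromatoid body of RS, fell by 1.18 and 1.21, from 334 to 147 and from 161 to 67.6 CPM. Trim28, a corepressor that silences LTR elements through histone methylation, fell by 0.87, from 251 to 138 CPM, and Mael and Gtsf1, both needed for piRNA-guided silencing, fell by 0.59 and 0.41. In contrast, Tdrkh, a mitochondrial tudor protein that helps trim piRNAs, rose by 3.07, from 8.62 to 76.7 CPM. Piwil1, the PIWI protein of meiotic and round spermatid cells, was at 31.7 and 30.8 CPM and was not called.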

How the data were processed

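Raw counts per contig were deposited by the authors as 1 table of 12 libraries. Per the labels and methods, oligo(dT)-selected RNA was sequenced directly on R9 flow cells, base-called with Guppy, mapped with minimap2 (2.20-r1061 in the submitters' processing notes) to mouse transcripts of the mm10 genome, and reads were kept where Nanopolish passed the tail. The methods state a minimum of 10 reads in 2 replicates of a condition, which 41 of the repeat contigs in the table do not reach, and RNAs outside the table are not analysed here. Where the repeat-named contigs of the reference came from is not given in the sources used here. The deposited DESeq2 fold changes and p-values of stage and genotype comparisons were not used. Counts are not corrected for length, so levels were not compared between contigs.

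Counts were tested with edgeR 4.0.16 (quasi-likelihood, TMM, R 4.3.3) on all 12 libraries with 1 term per group, keeping contigs with at least 10 counts in 2 libraries of a group or more, with Benjamini-Hochberg adjustment over all 11831 contigs and a threshold of 0.05. Standard errors are the log2 difference over the square root of F. Class, stem and family sums replaced the repeat contigs and were fitted with all transcript contigs. On simulated counts with 100 contigs changed by 1 log2 unit and 100 by 2 in the wt/wt stage comparison, 13% and 48% were recovered. DESeq2 1.42.0 and other scalings, filters and fits were alternatives. Transcript names came from GENCODE vM21 (11344 contigs matched).

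The members and the gene lists were chosen with earlier results of these data known. Named contigs are the 2 most counted of each class, those with the smallest adjusted p whose groups do not overlap in each stage comparison (3 risen and 3 fallen in wt/wt, 2 and 2 in dcat/dcat), the 3 with the smallest p in each genotype comparison and the interaction, and any called there by an alternative. Named families have at least 5 tested contigs or are the 5 risen and 5 fallen sums with the smallest adjusted p. RLTR22_Mur_dup1841 and the IAP contigs were named after their values were seen. Libraries with the same replicate number deviated together between the genotypes in RS (correlations 0.70, 0.38 and 0.47) and between the stages in dcat/dcat (0.52, 0.25 and 0.29), and not in every pair between the genotypes in ES (0.45, 0.31 and 0.03) or the stages in wt/wt (0.40, 0.36 and -0.09). Depth was 337287 to 1359427 counts per library. Floors cover counting error only.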

Additional observations from a re-analysis of the deposited data

Results flagged for a closer look

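RMER13B_dup1480 was the 1 of 63 named contigs and sums examined whose stage difference pointed opposite ways in the genotypes without overlap of the groups in CPM. It had been named for its small interaction p, so the opposite directions were part of why it was examined. The stage difference was -1.03 on the log2 scale in wt/wt, where RS had 9, 10 and 17 counts and ES 2, 3 and 1. In dcat/dcat it was 1.16, where RS had 1, 3 and 4 counts and ES 4, 2 and 3. Outside RS wt/wt these counts lie near the floor of 3. The test of the difference between the genotypes gave 2.20 and did not pass the adjustment (adjusted p = 1, edgeR).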

How the results depend on the processing

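The stage counts of repeat contigs, 250 in each genotype, stayed within 1.5 times under other scalings, DESeq2 (223 in wt/wt, 215 in dcat/dcat), no filter, the groups compared alone (216, 195) and a replicate block (284, 287), and became 39 and 38 of 66 contigs tested when every library needed 10 counts. Leaving out a library gave 163 (without ES wt/wt replicate 2) to 231 in wt/wt. The replicate block gave 1 genotype call in RS, and none in ES or for the interaction. Among named contigs and sums it also called ID_B1_dup27209 and the MIR stem in wt/wt and the other-names stem in dcat/dcat (adjusted p = 0.0404, edgeR), and changed no other call. With library totals alone class sums were -0.10 (SINE), -0.24 (L1), 0.16 (LTR) and 0.13 (remaining) in wt/wt, and in dcat/dcat -0.19 (SINE), -0.22 (L1), 0.17 (LTR) and 0.067 (remaining). The stem sums that turned were, in wt/wt, B2 -0.60, B3 -0.18, ID -0.59, L1 -0.24, Lx -0.13, MIR -0.29, MLT -0.0089, other LTR names -0.026, other names -0.46, PB -0.0044, RLTR -0.12 and RSINE1 -0.19, and in dcat/dcat B2 -0.35, B3 -0.28, IAP -0.34, L1 -0.22, Lx -0.18, MIR -0.24, other LTR names -0.13, other names -0.31, RLTR -0.048, RMER -0.070 and RSINE1 -0.22. The stem sums called lower with totals alone were B2, ID, IAP and other names in wt/wt and ID (-0.74) in dcat/dcat. MLT1G3_dup736 was -0.69 with totals alone and -0.29 with 10 counts in every library. Genotype sums near 0 also changed sign. In RS, L1 was 0.012 with DESeq2, 0.0126 with RLE, 0.0013 with the groups compared alone and 0.0151 with wide classes, SINE 0.0087 with DESeq2 and 0.0088 with RLE, and the remaining names -0.047 with wide classes. With totals alone L1 was 0.01 in ES, and the interaction was 0.0129 for L1 and 0.0082 for LTR. Leaving out a library, the L1 stage sum ran from 0.42 to 0.60 in wt/wt and 0.35 to 0.54 in dcat/dcat, the genotype sums in RS from -0.070 to 0.11 (L1), -0.030 to 0.039 (remaining) and -0.060 to 0.027 (SINE), L1 in ES from -0.12 to 0.059, the interaction from -0.14 to 0.058 (L1) and -0.13 to 0.019 (LTR), MLT1G3_dup736 from -0.068 to 0.13 and the ID stem in dcat/dcat from -0.23 to 0.13. The cause of these changes was not tested. The 10 family sums kept their direction and stayed called in wt/wt under each alternative that was run. Depth limits the ES libraries most, since 1 count there is up to 3.53 CPM.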
